A study of Oryza sativa with 9 samples.

Results

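The 6 transgenic leaf arrays of a rice microarray series, 3 labelled OE and 3 labelled RNAi, were compared as a pool with the 3 wild-type (WT) arrays of the same series, so that all 9 arrays entered the comparison. The transgenic arrays were chosen by their labels alone. The pooled difference was the mean of both line means minus the WT mean, which gives each line the same weight and asks what leaves of transgenic rice share whatever construct they carry. OsHMGB707 encodes a high mobility group box (HMGB) protein, and the OE plants carried its full-length cDNA behind the CaMV 35S promoter in pCAMBIA1323, while the RNAi plants carried a segment of it in pTCK303 behind a ubiquitin promoter. Both constructs were introduced into the japonica variety Zhonghua11 (ZH11) with Agrobacterium and selected on hygromycin, and WT is untransformed ZH11. All plants were 21-day-old seedlings in liquid culture under normal conditions, and each array held RNA of pooled seedlings. The labels name no transformed line, so 1 transformation event may stand behind all arrays of a group, and no plant transformed with an empty vector is among the arrays. Transformation, tissue culture, hygromycin selection, the vector backbone, growth and the WT seed stock therefore cannot be told apart from the constructs in any difference between transgenic and WT leaves.

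HMGB proteins are abundant chromatin proteins that bind DNA with little sequence preference and bend it, which helps other factors to reach their sites. Rice is transformed through callus, a tissue culture phase known to leave changes in DNA methylation, transposon activity and gene sequence that can be inherited by the regenerated lines. A T-DNA can also change a gene at the place where it inserts, and such a change is particular to a line. A level shared by lines that carry opposite constructs is a different quantity from a level that follows the dose of OsHMGB707.

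Values are log2 signals after RMA (robust multi-array average), in which 1 unit is a 2-fold difference, and array medians lay between 5.89 and 5.94. Names with a LOC number are genes of the platform annotation, and loci written LOC_Os, Os12g or BGIOSGA come from the study's annotation. Correlations across probe sets were 0.992 to 0.998 within groups, 0.992 to 0.995 between transgenic and WT arrays and 0.988 to 0.993 between OE and RNAi arrays. The mean level of a list of leaf markers was 11.90 to 12.03 on WT arrays and 11.87 to 12.06 on transgenic arrays, and none of its 14 probe sets was called. The mean levels of the anther and pollen, seed and root marker lists reached at most 4.25, 4.83 and 5.67 on any array, and no member was called, while 1 of 12 probe sets of the panicle meristem list was called. OsHMGB707 (LOC4336676 on chromosome 4) read 12.39, 12.38 and 12.38 in WT, 12.25, 12.28 and 12.37 on the arrays labelled OE and 10.31, 10.43 and 10.03 in RNAi. On this probe set the arrays labelled OE were thus not above WT, and the pooled difference of -1.11 (SE 0.08, adjusted p = 0.000184) came from RNAi. A dimmer second probe set of OsHMGB707 had means of 6.58 in WT, 6.32 in OE and 6.15 in RNAi. It differed by -0.35 as a pool and was not called (adjusted p = 0.329). By qPCR the study reported several overexpression lines above WT, and the labels do not say which line was arrayed.

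The pooled comparison called 289 of 57194 probe sets, 0.505% of those tested, at an adjusted p under 0.05 by limma with Benjamini-Hochberg adjustment. Of these, 161 were higher in transgenic leaves (0.281%) and 128 were lower (0.224%). Over 2-fold, 72 were higher (0.126%) and 14 were lower (0.0245%), and the lines were called different for 41 of the 72 and 9 of the 14. At an unadjusted p under 0.05 the comparison held 7021 probe sets, or 12.3%. The transgenic arrays all lay on the same side of the WT arrays for 192 of the 289, against 4.69% of all probe sets (2.56% above and 2.13% below). The calls were chosen on these same arrays, so this count follows partly from that choice and adds no support. A WT mean below the lower quartile of signals was found for 46 of the 161 rises, for 29 of the 72 rises over 2-fold and for 1 of the 128 falls, against 24.9% of all probe sets. When the 6 transgenic arrays were fitted as a single group, so that the difference between the lines entered the spread, 59 probe sets were called, all of them among the 289, and 52 of them were among those whose lines were not called different. Leaving out WT replicate 1, 2 or 3 lowered the count to 187, 122 or 117, and leaving out RNAi replicate 2 lowered it to 190. Centring each array on its median changed the split from 161 higher and 128 lower to 147 higher and 184 lower.

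The OE minus RNAi difference uses no WT mean and shows how far the lines shared each level. Its test takes its spread from all 9 arrays, as the pooled test does. A probe set of low spread is thus called more easily by both tests, which adds to the overlap of their calls by an amount not tested. A level moved by 1 line alone also enters both differences, so choosing pooled calls selects line differences too. The lines also differed for 182 of the 289 probe sets, whereas 6.16% of all probe sets tested differed between the lines. The other 107 (60 higher and 47 lower) were not called different between OE and RNAi, which does not show that the lines were alike. The size of the line difference was under 0.5 times the pooled difference for 104 probe sets and between 0.5 and 2 times for 152. For the remaining 33 it was over 2 times, which places the mean of OE and the mean of RNAi on opposite sides of WT. Pooled calls therefore held levels moved alike, levels moved by unequal amounts and levels moved by 1 line.

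**Figure D1:**
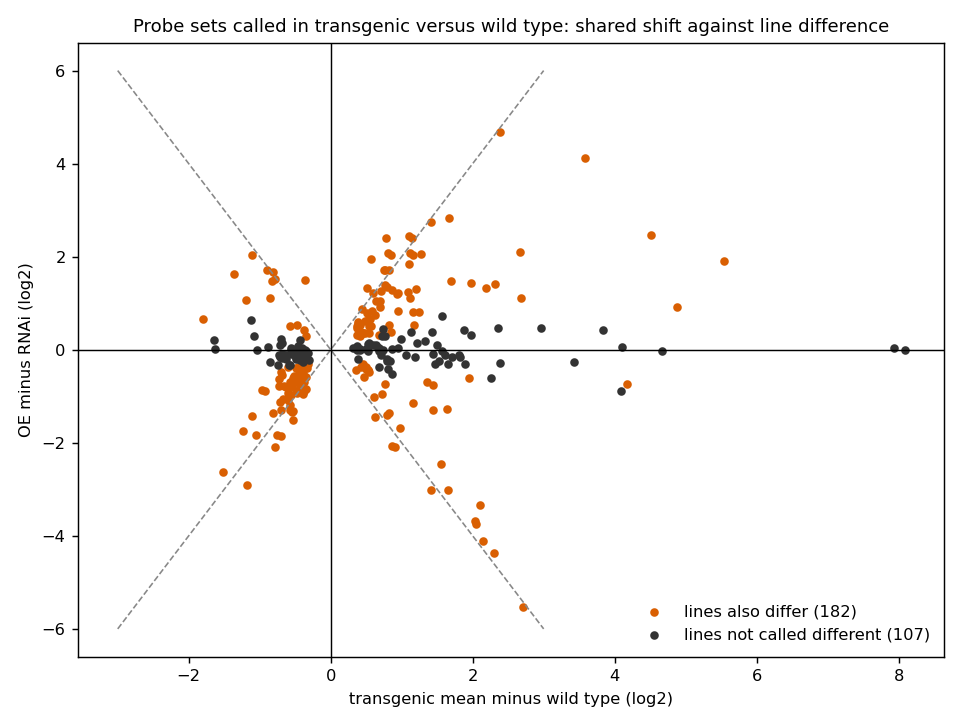
Each point is 1 of the 289 called probe sets, with the pooled difference from WT on the x axis and the OE minus RNAi difference on the y axis, both log2; points on a dashed line have 1 transgenic line at the WT mean. The 107 probe sets whose lines were not called different lie along the horizontal axis, while many of the 182 others lie near the dashed lines.

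LOC4331398 on chromosome 3 (annotated by the study as an expressed protein, LOC_Os03g02470) rose most in transgenic leaves. Its first probe set read 3.24, 3.40 and 3.49 in WT, 11.52, 11.50 and 11.39 in OE and 11.42, 11.46 and 11.51 in RNAi. WT arrays lay at the low end of the scale and all 6 transgenic arrays among high signals, with almost no spread among them. The pooled difference was 8.09 (SE 0.07, adjusted p = 4.79e-12), and OE and RNAi differed by 0.0036 with a 95% interval from -0.17 to 0.18. A second probe set of the gene gave 7.94 (SE 0.11, adjusted p = 3.23e-10). Its neighbour LOC4331397 rose by 0.52 (SE 0.09, adjusted p = 0.0333), from 7.35, 7.51 and 7.57 in WT to between 7.85 and 8.13 in the transgenic arrays, and this smaller call was lost without any 1 of 8 arrays (adjusted p up to 0.144). No function is given for either gene in the sources used here.

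LOC9268613 on chromosome 10, which the study's annotation describes as having an F-box protein interaction domain (F-box proteins choose targets for ubiquitin ligases), rose on both of its probe sets. The one with the larger difference read 3.86, 3.90 and 3.48 in WT, 8.75, 8.45 and 8.02 in OE and 8.28, 8.44 and 8.56 in RNAi, a rise of 4.67 (SE 0.15, adjusted p = 6.00e-07). The other gave 3.42 (SE 0.12, adjusted p = 7.40e-07). The study's annotation gives these 2 probe sets different loci, so a related gene may contribute to the signal. LOC4342716 on chromosome 7, an expressed protein, read 4.34, 4.38 and 4.93 in WT and 8.43 to 8.99 on the transgenic arrays, a rise of 4.11 (SE 0.16, adjusted p = 1.36e-06) with a line difference of 0.06 (95% interval -0.35 to 0.47). Neither gene had a transgenic array near a WT array.

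Among transcription factors, LOC4328903 on chromosome 2 (LOC_Os02g15350), which encodes a Dof zinc finger protein, a plant-specific class of DNA-binding factor, read 4.07, 3.47 and 3.32 in WT, 7.89, 7.68 and 7.45 in OE and 7.18, 7.04 and 7.56 in RNAi. It rose by 3.84 (SE 0.18, adjusted p = 4.62e-06), and the line difference was 0.41 (95% interval -0.04 to 0.87). The arrays with reduced OsHMGB707 and the arrays labelled OE thus shared this rise. MADS27, a MADS-box transcription factor, read 4.77, 4.88 and 4.88 in WT, 6.30, 6.08 and 6.47 in OE and 5.74, 5.71 and 5.83 in RNAi, a rise of 1.18 (SE 0.08, adjusted p = 0.000117) that was larger in OE by 0.52 (adjusted p = 0.0121). A second MADS27 probe set rose by 0.41 (SE 0.07, adjusted p = 0.0298), a call lost without any 1 of 7 arrays (adjusted p up to 0.198). The probe set of LOC_Os10g25850, whose study annotation is a nuclear transcription factor Y subunit (a CCAAT-binding protein), read 4.62, 4.62 and 5.25 in WT, 7.99, 7.67 and 7.89 in OE and 6.57, 6.38 and 6.38 in RNAi. It rose by 2.31 (SE 0.14, adjusted p = 3.51e-05), more in OE than in RNAi by 1.41 (adjusted p = 0.00119).

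**Figure D2:**
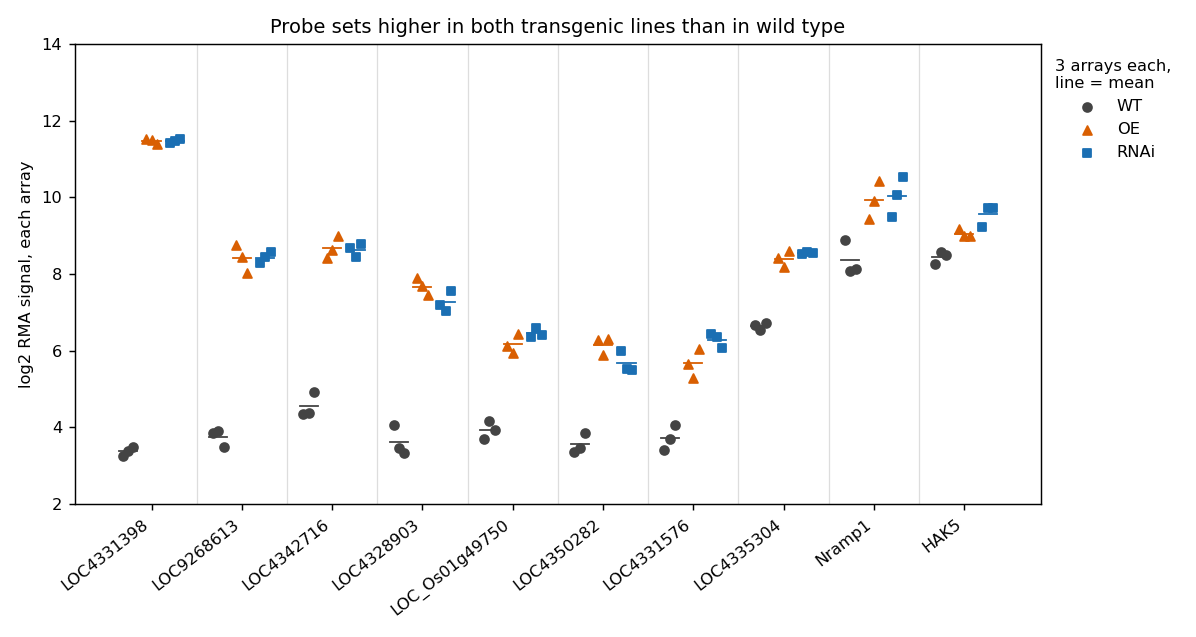
Log2 RMA signal of each array (points) and group means (short lines) for 10 probe sets that were higher in both transgenic lines and not called different between them. LOC4331398 moves from below 3.5 in WT to above 11.3 on all transgenic arrays, and the WT arrays of each probe set lie below its transgenic arrays.

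Further rises were shared by genes outside the rule for named genes, which were chosen after their values were seen. LOC4335304 on chromosome 4, annotated by the study as a protein with a rhodanese-like domain (a sulphur-transfer fold), rose on all 3 of its called probe sets, by 1.82, 1.66 and 1.498 (SE 0.09, 0.15 and 0.14). On the first of these, WT read 6.68, 6.54 and 6.73, OE read 8.42, 8.19 and 8.59, and RNAi read 8.51, 8.58 and 8.54, which is 3.54-fold higher. LOC4350063 on chromosome 11, annotated as a protein kinase, rose by 1.57 (SE 0.19, adjusted p = 0.00617) beside its neighbour LOC4350062, which rose by 0.52. Without WT replicate 2 or WT replicate 3 the adjusted p of LOC4350063 went up to at most 0.0557. A probe set with no listed gene or locus read 6.17, 5.36 and 6.07 in WT and 8.13 to 9.38 on the transgenic arrays, a rise of 2.96 (SE 0.22, adjusted p = 0.000189), and LOC4331576 on chromosome 3 by 2.25 (SE 0.18, adjusted p = 0.000324). LOC_Os01g49750, an expressed protein on the study's annotation, rose by 2.38 (SE 0.12, adjusted p = 1.25e-05).

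Transposable elements are known to respond to tissue culture in rice, and the study's annotation named a transposon or retrotransposon for 10 of the 114 called probe sets that it described. The study picked the probe sets it described from these arrays, so this is no independent count and no share over all probe sets can be given beside it. Of the 10, 9 were higher and 1 was lower in transgenic leaves, and for 4 the lines were not called different. All calls over 2-fold were likewise mostly rises, 72 higher and 14 lower, so this split does not set the 10 apart. LOC4350282 on chromosome 11, a transposon protein, read 3.35, 3.45 and 3.86 in WT, 6.28, 5.88 and 6.30 in OE and 6.00, 5.53 and 5.51 in RNAi. Both lines were above WT on every array, with a rise of 2.36 (SE 0.15, adjusted p = 5.93e-05) and a line difference of 0.48 (95% interval 0.08 to 0.87). LOC_Os12g07180 rose by 1.48 (adjusted p = 0.000814), and LOC_Os11g02220, a SINE-class retrotransposon, by 1.43 (adjusted p = 0.00216). The fall was that of LOC4333427, a retrotransposon protein, which read 9.04, 9.08 and 8.73 in WT, 8.30, 8.33 and 8.22 in OE and 7.39, 7.21 and 7.06 in RNAi. It fell by 1.20 on the log2 scale (SE 0.10, adjusted p = 0.000324), further in RNAi. Of the genes that silence such elements, 0 of 24 probe sets for RNA silencing and 0 of 18 for DNA methylation and chromatin were called, which at 0.505% of all probe sets does not set these short lists apart. An unadjusted p under 0.05 was found for 5 and 4 of them, beside 12.3% of all probe sets.

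Other large rises were shared in direction and unequal in size, with OE above RNAi in most of those named here. The largest, a probe set with no listed gene or locus, read 3.60, 3.24 and 3.28 in WT, 9.68, 10.30 and 9.63 in OE and 7.65, 8.02 and 8.23 in RNAi, a rise of 5.55 (SE 0.17, adjusted p = 3.74e-07). LOC4340325 on chromosome 6 rose by 4.87 (SE 0.14, adjusted p = 2.08e-07), by 5.33 in OE and 4.41 in RNAi, although a second probe set of that gene differed by only -0.02, and the study's annotation gives the first one a locus on another chromosome. LOC_Os07g06834 read 6.48, 6.61 and 6.00 in WT, 11.93, 12.21 and 11.86 in OE and 7.95, 7.75 and 7.95 in RNAi, which is 49.7-fold higher in OE and 2.86-fold higher in RNAi. LOC4337401 rose by 2.68 (SE 0.12, adjusted p = 3.51e-06), by 3.24 in OE and 2.13 in RNAi. A pair of probe sets of 1 target, the second of which the study lists under BGIOSGA036482, rose by 4.08 and 4.18 with RNAi above OE by 0.89 and 0.74, of which only the second line difference was called (adjusted p = 0.0760 and 0.0498).

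Jasmonates are stress hormones made from fatty acids through allene oxide synthase, and JAZ proteins repress their target genes. The jasmonate list had 1 higher and 1 lower call among 44 probe sets, with a median difference of -0.06 against 0.0073 over all probe sets tested. The probe set listed as JAZ2 read 3.11, 4.51 and 3.85 in WT, 9.05, 9.55 and 10.09 in OE and 7.55, 6.76 and 7.00 in RNAi, a rise of 4.51 (SE 0.31, adjusted p = 9.81e-05). All transgenic arrays were above WT and OE was above RNAi by 2.46 (adjusted p = 0.00418). The platform annotation gives JAZ2 on chromosome 7 for it and the study's table gives a different locus on chromosome 5, so the gene behind this signal is uncertain. AOS, the allene oxide synthase gene, read 10.88, 11.07 and 11.13 in WT, 10.30, 10.28 and 10.02 in OE and 10.78, 10.77 and 10.86 in RNAi. It fell by 0.53 on the log2 scale (SE 0.08, adjusted p = 0.0253), mainly in OE, and lost its call without WT replicate 2, WT replicate 3 or RNAi replicate 2 (adjusted p up to 0.174).

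Mineral nutrient transporters, as a list, had 2 rises and no fall among 105 probe sets (1.90%, beside 0.505% of all probe sets), and both calls were lost when single arrays were left out. Among probe sets with 1 listed gene, from which the lists were drawn, 147 of 22436 were called. Nramp1, a metal transporter of the NRAMP family that takes up iron and related metals, read 8.89, 8.07 and 8.12 in WT, 9.43, 9.92 and 10.43 in OE and 9.50, 10.06 and 10.53 in RNAi. Each transgenic array was above each WT array, but the arrays of a group spread over about 1 unit, and the rise of 1.62 (SE 0.28, 3.06-fold, adjusted p = 0.0396) was lost without any 1 of 6 arrays (adjusted p up to 0.240). HAK5, a high-affinity potassium transporter, read 8.26, 8.56 and 8.50 in WT, 9.18, 8.99 and 8.99 in OE and 9.23, 9.73 and 9.73 in RNAi. It rose by 0.87 (SE 0.12, 1.82-fold, adjusted p = 0.0130), a call lost without any 1 WT array (adjusted p up to 0.0771), while its brighter second probe set differed by -0.0028. Of the phosphate signalling list, 1 of 37 probe sets was called, which was OsSPX2, whose SPX domain senses phosphate status. OsSPX2 read 9.18, 9.57 and 9.40 in WT, 9.32, 9.18 and 9.35 in OE and 8.08, 7.69 and 7.68 in RNAi, so that its fall of 0.83 on the log2 scale (SE 0.11, adjusted p = 0.0101) was carried by RNAi. It was lost without WT replicate 2 or WT replicate 3 (adjusted p up to 0.0807).

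Among calls whose lines were not called different, the median size of the pooled difference was 1.09 for the 60 rises and 0.55 for the 47 falls. LOC4326803 on chromosome 1, annotated as a no apical meristem protein (the NAC class of plant transcription factor), read 6.68, 6.55 and 6.80 in WT, 5.21, 5.09 and 5.10 in OE and 4.78, 4.94 and 5.06 in RNAi. It fell by 1.65 on the log2 scale (SE 0.08, adjusted p = 5.80e-06) with a line difference of 0.21 (95% interval 0.01 to 0.41). LOC_Os06g38120, annotated by the study as a low-affinity cation transporter, read 6.88, 6.75 and 7.08 in WT and between 4.91 and 5.61 on the transgenic arrays. No transgenic array reached WT, and the fall of 1.64 on the log2 scale (SE 0.17, adjusted p = 0.00181) was 1.63 in OE and 1.64 in RNAi by size. The NAC-type gene kept its call under every alternative that tested it, and the cation transporter under all but the fit without moderation.

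GDH2, a glutamate dehydrogenase that links ammonium to carbon metabolism, read 9.46, 9.09 and 9.39 in WT, 8.42, 8.95 and 8.17 in OE and 7.79, 7.78 and 8.05 in RNAi. It was 2.17-fold lower (a log2 difference of -1.12, SE 0.16, adjusted p = 0.0136), while its other probe sets differed by -0.41 and -0.59 and were not called, and the call was lost without WT replicate 1 or WT replicate 3 (adjusted p up to 0.111). LOC4324297, which has an RNA recognition motif, read 7.96, 8.02 and 8.08 in WT, 7.02, 6.84 and 7.41 in OE and 6.80, 6.94 and 6.66 in RNAi, and was 2.11-fold lower (SE 0.11 on the log2 scale, adjusted p = 0.00244). LOC4348394 on chromosome 10 read 8.62, 8.27 and 8.21 in WT and 7.01 to 7.59 on the transgenic arrays, a fall to the same level in both lines. It was 2.05-fold lower (adjusted p = 0.0140, and up to 0.0698 without a WT array). ABCG36, an ABC transporter of the plasma membrane class, read 6.31, 6.46 and 6.63 in WT and 5.70 to 5.92 on the transgenic arrays, and fell by 0.63 on the log2 scale (SE 0.08, adjusted p = 0.00512). Its brighter second probe set, with a WT mean of 9.19, differed by -0.33 and was not called (adjusted p = 0.498). BRXL1, a BREVIS RADIX-like gene, fell by 0.55 (SE 0.09, adjusted p = 0.0375), a call lost without any 1 of 6 arrays (adjusted p up to 0.234). Its means were low, at 4.70 in WT, 4.14 in OE and 4.16 in RNAi, all below the array medians.

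Other pooled falls were unequal between the lines. LOC_Os12g21784, an expressed protein, read 8.02, 7.65 and 7.68 in WT, 6.22, 6.33 and 6.38 in OE and 5.64, 5.86 and 5.47 in RNAi. Its fall of 1.80 on the log2 scale (SE 0.10, adjusted p = 2.84e-05) was present in both lines and deeper in RNAi. LOC4341009, a prefoldin (a chaperone that hands on unfolded actin and tubulin), differed by -0.54 in OE and -2.18 in RNAi, and its adjusted p of 0.00617 went up to 0.0555 without WT replicate 2. LOC4325735, a cullin (the scaffold of a ubiquitin ligase), read 11.06, 11.13 and 10.97 in WT, 8.22, 8.36 and 8.09 in OE and 11.07, 10.79 and 10.72 in RNAi. Its pooled fall of 1.52 (SE 0.09, adjusted p = 3.51e-05) came from OE, which was 7.12-fold below WT, while RNAi overlapped WT, and a dim second probe set differed by 0.05. LOC4350071, a dirigent protein of a class that guides the coupling of phenols, was 4.31-fold lower in OE and 1.29-fold lower in RNAi. LOC_Os10g07010, a 3-ketoacyl-CoA synthase of fatty acid elongation, differed by -1.82 in OE and -0.40 in RNAi. LOC4329797 differed by -2.63 in OE and 0.27 in RNAi, and its pooled adjusted p of 0.00626 went up to 0.0555 without WT replicate 2.

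**Figure D3:**
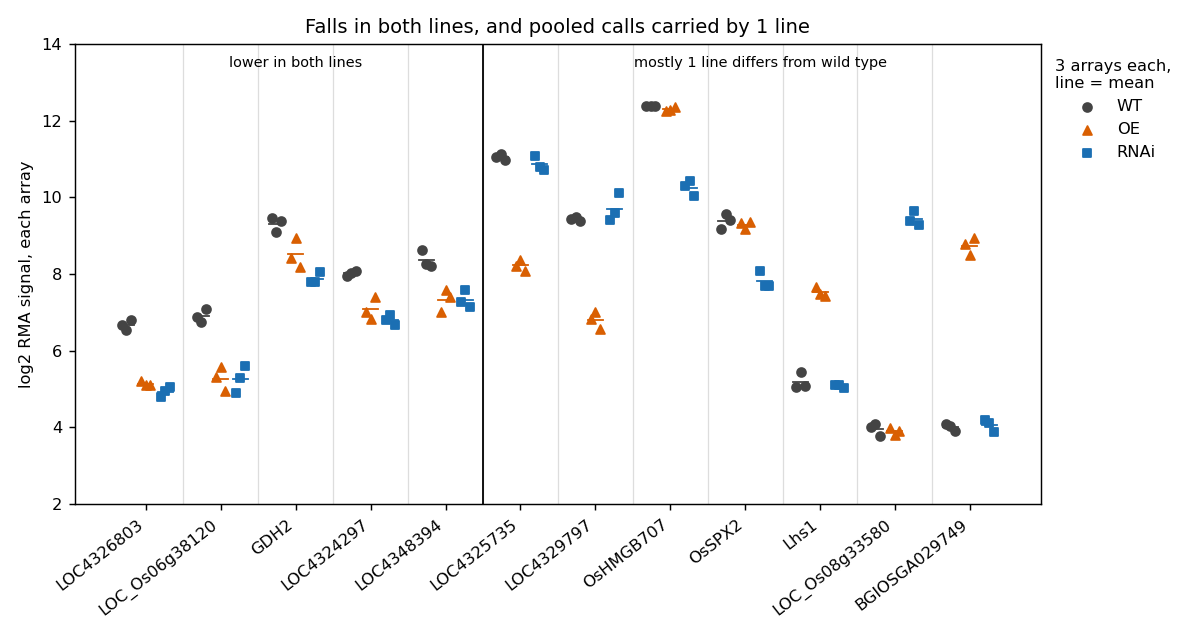
Log2 RMA signal of each array (points) and group means (short lines) for 5 probe sets lower in both lines and 7 probe sets whose pooled call rests mostly on 1 line. In the right-hand part, 1 of the transgenic groups stays close to the WT arrays, as in OsHMGB707, where only RNAi is clearly lower.

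Several named genes entered the pooled calls mainly through 1 line or moved further in 1 line. Lhs1 (OsMADS1), a MADS-box regulator of floret development, read 5.04, 5.44 and 5.08 in WT, 7.66, 7.47 and 7.43 in OE and 5.10, 5.10 and 5.02 in RNAi. RNAi lay within the WT arrays or below them, so its pooled difference of 1.11 (adjusted p = 0.000503) described OE. DMC1, a recombinase of meiosis, read 6.04, 6.10 and 6.24 in WT, 7.27, 7.30 and 7.46 in OE and 6.11, 6.36 and 6.44 in RNAi, with a pooled difference of 0.70 (adjusted p = 0.00663) that went to 0.0579 without WT replicate 2. NSHB2, a non-symbiotic haemoglobin that binds nitric oxide and oxygen, was 3.27-fold higher in OE and 1.38-fold higher in RNAi, whose lowest array lay within WT, and its adjusted p of 0.0352 went up to 0.220 when 1 array was left out. ARD1, an acireductone dioxygenase of methionine salvage, read 7.63, 8.02 and 7.95 in WT, 9.84, 9.40 and 9.93 in OE and 8.21, 8.69 and 8.38 in RNAi. ARD1 was higher on every transgenic array and the rise was 1.21 (SE 0.14, adjusted p = 0.00537), 3.62-fold in OE and 1.47-fold in RNAi, where the rise was not called alone (adjusted p = 0.216). A second ARD1 probe set at a similar level was not called and differed by -0.11 as a pool (adjusted p = 0.522). S1FA2, a small DNA-binding protein, rose by 0.42 (SE 0.06, adjusted p = 0.0116), by 0.57 in OE and 0.26 in RNAi, and was higher on every transgenic array. Its call was lost without any 1 WT array (adjusted p up to 0.108). The probe set of LOC_Os08g33580 read 4.02, 4.08 and 3.78 in WT, 3.99, 3.81 and 3.89 in OE and 9.38, 9.65 and 9.28 in RNAi, and BGIOSGA029749 rose by 4.73 in OE and differed by 0.05 in RNAi.

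Where the lines lay on opposite sides of WT, the pooled call did not describe a level that the lines shared. For LOC4350103 and LOC4342930, RNAi alone was not called different from WT (adjusted p = 0.101 and 0.523 by limma). LOC4350103 on chromosome 11 read 6.25, 6.24 and 6.18 in WT, 7.84, 7.66 and 7.77 in OE and 5.88, 5.93 and 5.62 in RNAi, with a pooled difference of 0.56 (SE 0.08, adjusted p = 0.0125). Its other probe sets differed by -0.42 and -0.67 as a pool, with OE below WT, so the probe sets of this gene disagree. LOC4342930 on chromosome 7, annotated by the study as an aldehyde oxidase, read 8.37, 8.39 and 8.47 in WT, 6.81, 6.76 and 6.79 in OE and 8.37, 8.55 and 8.998 in RNAi. OE was far below the other groups and RNAi reached above WT, with a pooled difference of -0.70 (adjusted p = 0.0335, and up to 0.208 when 1 array was left out). A second probe set of this gene gave -0.76 (adjusted p = 0.0440). For LOC4350103 the adjusted p went up to 0.108 without 1 of the WT arrays.

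Small falls, deeper in OE on the called probe set, were found for MCM9, a minichromosome maintenance protein, CDPK5, a calcium-dependent kinase, and HSF1, listed as a heat shock factor. MCM9 read 8.00, 7.88 and 7.91 in WT, 7.18, 7.14 and 7.24 in OE and 7.80, 7.83 and 7.81 in RNAi, a pooled fall of 0.43 on the log2 scale (adjusted p = 0.00663, and 0.0512 without WT replicate 3). A second MCM9 probe set at a similar level differed by -0.15 (adjusted p = 0.466), with means of 8.09 in WT and 8.18 in RNAi. CDPK5 fell by 0.40 (adjusted p = 0.0378) and HSF1 by 0.34 (adjusted p = 0.0254), while their second probe sets differed by -0.38 and -0.14 and were not called. The second CDPK5 probe set differed by -0.40 in OE and -0.35 in RNAi, and limma called no line difference for it (adjusted p = 0.862). Both calls were lost when single arrays were left out, CDPK5 for 8 arrays (adjusted p up to 0.231) and HSF1 for 6 (adjusted p up to 0.174).

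Over the 30 gene lists, 14 of 1210 probe sets were called, 8 higher and 6 lower, which is 1.16% beside 0.505% of all probe sets tested. Lists could hold only probe sets with 1 listed gene, of which 147 of 22436 were called. They were also chosen with earlier results of these data known, so their share of calls is no independent result. The 14 calls fell in 10 lists, and list medians ran from -0.08 to 0.14. The MADS-box list held 3 rises among 39 probe sets, from MADS27 and Lhs1. The calcium and MAP kinase list held 1 call among 122 probe sets, the cell cycle and replication list 1 among 84, the heat shock list 1 among 66, the detoxification list 1 among 23, the ethylene and methionine salvage list 1 among 23 and the haemoglobins 1 among 5. In 20 lists no member was called by limma. They included photosynthesis (0 of 30, 6 with an unadjusted p under 0.05), ribosomal proteins (0 of 41, 7), auxin (0 of 77, 14), protein phosphatase 2C (0 of 72, 10), cell wall (0 of 132, 18), aquaporins (0 of 36, 5), antioxidant enzymes (0 of 49, 10) and pathogenesis-related proteins (0 of 25, 1). None of the 17 probe sets of the circadian clock and flowering list had an unadjusted p under 0.05.

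The drought-related lists are short, and beside the 0.505% of all probe sets called, a list without a call does not set them apart. DREB and CBF factors, which switch on dehydration and cold genes, had 0 of 12 called and a median of 0.05, with 2 under an unadjusted p of 0.05, which 12.3% of all probe sets reached. DREB1G had means of 6.13, 7.64 and 5.18 in WT, OE and RNAi. It differed by 0.28 as a pool (adjusted p = 0.562) because the lines lay on opposite sides of WT. The list of drought-related NAC, bZIP and dehydrin genes had 0 of 45 called, with 5 under an unadjusted p of 0.05. LEA19, a late embryogenesis abundant protein, read 7.22, 6.27 and 8.18 in WT, 5.15, 7.42 and 6.57 in OE and 5.15, 5.43 and 7.74 in RNAi, a difference of -0.98 within the spread of its arrays (adjusted p = 0.579). The WRKY list had 0 of 7 called and the diterpenoid phytoalexin list 0 of 23. CYP76M7, a cytochrome P450 of that pathway, came nearest at -0.86 (adjusted p = 0.0667), with group means of 10.73 in WT, 9.12 in OE and 10.62 in RNAi. ACO1, an enzyme that makes ethylene, had means of 8.67 in WT, 10.06 in OE and 9.66 in RNAi and missed the threshold (adjusted p = 0.0960).

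**Figure D4:**
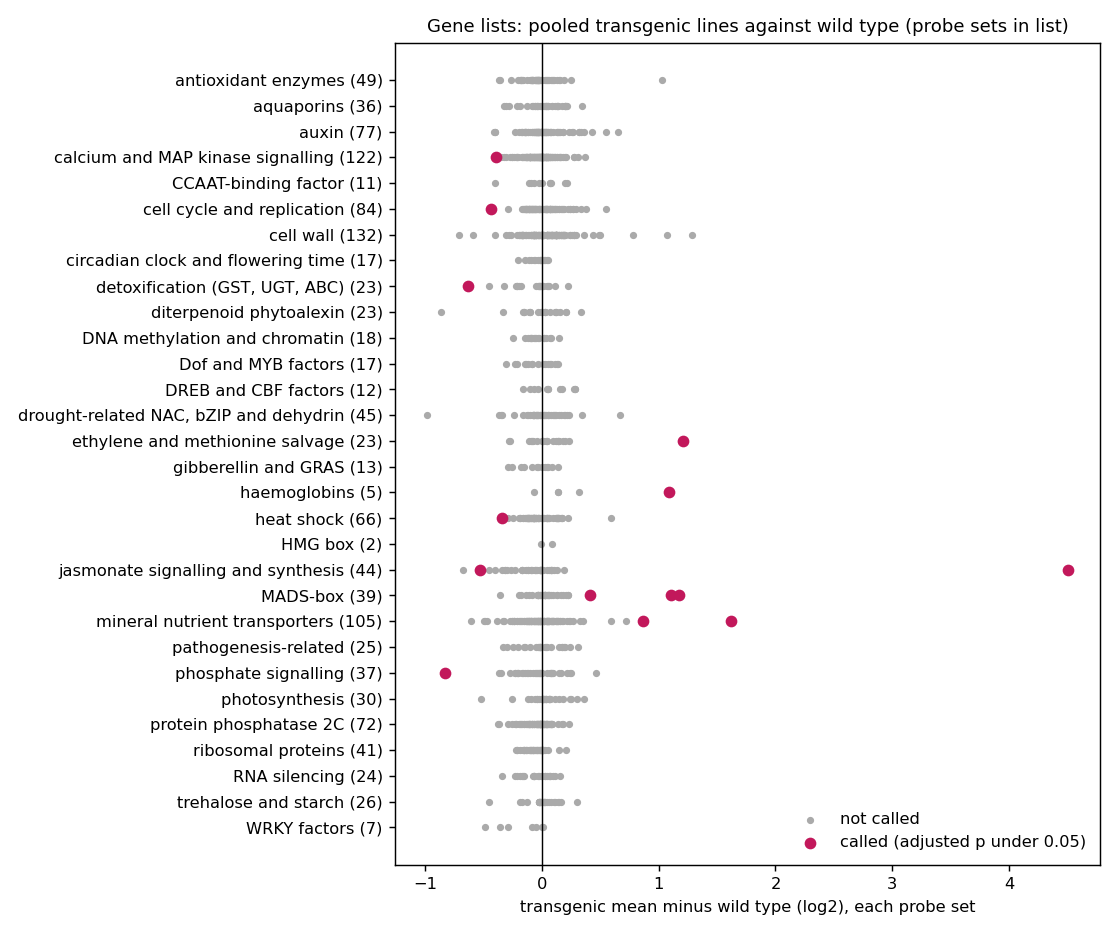
Pooled transgenic minus WT difference (log2, x axis) of every probe set in 30 gene lists (rows, with the number of probe sets), with called probe sets as large points. The 14 calls fall in 10 lists, with 3 in the MADS-box list and at most 2 in any other, and the probe set listed as JAZ2 lies farthest from 0.

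Of the 289 called probe sets, 147 had 1 listed gene (137 different genes) and 142 had none, and 18 carried a gene name other than a locus number. The calls were spread over all 12 chromosomes, from 0.329% of the probe sets tested on chromosome 8 to 1.40% on chromosome 11. Chromosome 11 held 15 calls, 8 higher and 7 lower. Of 17903 genes placed in order, 137 were called, and among these were 3 pairs of neighbouring genes. How many such pairs would arise by chance was not tested. The pairs were LOC4331397 with LOC4331398 and AOS with NSHB2 on chromosome 3, and LOC4350062 with LOC4350063 on chromosome 11. AOS and NSHB2 moved in opposite directions, while both genes of the other pairs rose. At the threshold, LOC4336798 was the last call at an adjusted p of 0.0496, and a probe set that lacks a listed gene, with a pooled difference of -0.29, missed it at 0.0502.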

How the data were processed

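Leaf RNA of 9 rice seedling pools was hybridised to Affymetrix arrays, 3 each for WT, OE and RNAi. The authors deposited 1 table of log2 values, made with RMA (background correction, quantile normalization and summary of probes), with no version stated. RMA gives all arrays a common distribution, which reduces any shift of most transcripts at once, and it compresses low signals. The table gives no detection calls, so fold values are printed only where all group means were above the array medians, and the number of arrays limits the precision. It held 57381 probe sets, and 187 of them, for controls and reporters, were not tested.

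Values were fitted with limma 3.58.1 in R 4.3.3, with a mean per group over all 9 arrays (6 residual and 3.78 prior degrees of freedom), eBayes and Benjamini-Hochberg adjustment over 57194 probe sets, two-sided. Intervals are 95% intervals of that fit. The fit was tested on simulated data. The p-values measure the spread between pools of seedlings. Genes were named from the platform annotation and a reference gene table (22436 probe sets with 1 gene, 95 with several and 34663 with none), and locus descriptions from the study's tables, whose values were not used. Because the build was not matched, chromosomes only are given.

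Named genes were the target, the 12 largest called rises and 12 largest called falls, called genes with a name, list members, and calls carried by 1 line. The comparison, gene lists and names were chosen with earlier results of these data known. Alternatives were array centring, a filter on low values, control probe sets kept, 2 groups, no moderation, a trended robust prior, array weights, a replicate block and leaving out each array.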

Additional observations from a re-analysis of the deposited data

Results flagged for a closer look

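For 38 of the named pooled calls the effects of both lines against WT differed by the direct comparison of OE with RNAi in limma (adjusted p under 0.05), and 1 probe set left out of the tests stood far above WT. No cause was tested for any of them. Differences in this part are OE minus RNAi on the log2 scale.

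Among rises whose line means were both above WT, OE was higher for LOC_Os07g06834 (4.12), JAZ2 (2.46), the probe set of no listed gene with the largest such rise (1.90), LOC_Os10g25850 (1.41), ARD1 (1.30), NSHB2 (1.24), LOC4337401 (1.11), LOC4340325 (0.92), MADS27 (0.52) and S1FA2 (0.30), and RNAi was higher for BGIOSGA036482 (-0.74). For ARD1, NSHB2 and S1FA2 the rise in RNAi alone was not called (adjusted p = 0.216, 0.402 and 0.142).

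Among rises carried mostly by OE, the difference was 4.67 for BGIOSGA029749, 2.45 for Lhs1 and 1.04 for DMC1, while LOC_Os08g33580, high in RNAi alone, gave -5.54.

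Among falls, OE was the lower line for LOC4329797 (-2.90), LOC4325735 (-2.63), LOC4350071 (-1.74), LOC_Os10g07010 (-1.42), MCM9 (-0.63), AOS (-0.60), CDPK5 (-0.39) and HSF1 (-0.30). RNAi was the lower line for OsHMGB707 (2.04), LOC4341009 (1.64), OsSPX2 (1.47), LOC4333427 (1.06) and LOC_Os12g21784 (0.65).

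For 13 of the 38 the line means lay on opposite sides of WT, counting Lhs1, LOC_Os08g33580 and LOC4329797 above, where the line nearer to WT differed from it by -0.12, -0.06 and 0.27. The other 10 were named because their line difference was largest relative to the pooled one, so this count follows from that choice. Among all 289 calls, the line difference was over 2 times the pooled one for 33. Of the 10, OE was above and RNAi below for LOC_Os07g05260 (2.40), LOC4325412 (2.05), LOC4350103 (1.94), Os12g0290200 (1.49) and 2 probe sets with no listed gene (2.08 and 1.33). OE was below and RNAi above for LOC4342930 (-1.85), LOC_Os07g15500 (-1.52), LOC4342790 (-1.33) and a probe set that lacks a listed gene (-2.09).

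The reporter probe set RPTR-Os-K01193-1_at, outside the tests, read 4.15, 4.15 and 4.22 in WT, 13.23, 12.94 and 13.48 in OE and 10.40, 11.77 and 10.06 in RNAi. The pooled difference was 7.80, and the other 186 control and reporter probe sets differed by -0.24 to 0.54. The study's construct maps place a hygromycin resistance gene in both vectors, and the sources used here do not name the gene this probe set detects.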

How the results depend on the processing

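Every named call kept its direction under the 17 alternatives, and 19 of 64 kept an adjusted p under 0.05 in all that tested them. Direction could change only with array centring, array weights or an array left out. The other alternatives leave the pooled difference of a probe set as it was and change only its spread or the adjustment. Array weights gave 1025 calls (493 higher, 532 lower), 529 with lines apart, 496 without and 38 list members. The fit without moderation gave 87 calls (57 higher, 30 lower; 40 and 5 over 2-fold), 46 with lines apart, 41 without and 5 list members. With 2 groups there were 59 calls (44 higher, 15 lower; 34 and 5 over 2-fold) and 2 list members, since the line difference entered the spread. The filter on low values, which tests fewer probe sets, left 106 rises, 39 of them over 2-fold, and 42.2% of its 251 calls were rises, against 55.7% of the main ones and 44.4% after centring.

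Same-numbered arrays did not deviate together (correlations -0.33 to 0.12 in 9 pairs, against -0.21 to 0.28 in 18 others), so no pairing by number was seen. With so few arrays, these correlations cannot show that there was none. The replicate block gave 178 calls, 59 lower, 102 with lines apart and 8 list members, and 15 of the 64 named calls were lost.

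Leaving out an array gave 117 to 326 calls, 87 to 187 higher, 30 to 139 lower, 62 to 186 with lines apart, 53 to 140 without, and 5 to 14 list members, with 62 to 84 rises and 10 to 16 falls over 2-fold. The lowest counts came without a WT array. The causes of these and the other shifts were not tested. RMA background limits rises from low WT signals, whose size is compressed.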
